A study of Homo sapiens with 4 samples.

Results

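The kinesin genes of MDA-MB-231 cells were examined, that is, the protein-coding rows of the deposited table whose gene symbol begins with KIF and goes on as a family number, with or without letters. The pattern took 34 genes of the 12120 with a protein-coding row, and 81 of their transcripts. Of these genes, 12 act chiefly in mitosis (KIF2C, KIF4A, KIF11, KIF14, KIF15, KIF18A, KIF18B, KIF20A, KIF20B, KIF22, KIF23 and KIFC1) and 22 were set against them as the others. KIF1BP, one of the 22, came in by its name alone. It encodes a protein that binds kinesins and is not a motor itself, which leaves 21 other motor genes.

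MDA-MB-231 is an established human line of triple-negative breast cancer. Its cells had received either DMSO, as the vehicle, or 10 µM KH-3, a small molecule studied as an inhibitor of the RNA-binding protein HuR, over 24 h. Each condition had 2 libraries of mRNA. The cells carried no engineered change, and all libraries came from this one line. The paper also describes a group given a lower dose of KH-3, which is not among the samples used here. The table gives a single mean normalized read count per transcript, averaged by the authors over libraries, and which libraries entered that mean is not given in the sources used here. The levels below are therefore averages that may mix treated and control cells. The depth of each library is unknown, the spread between replicates cannot be shown, and the order of neighbouring genes cannot be set against an error. No effect of KH-3 on these genes is given here, because the columns that hold the authors' own comparison of the conditions are not used.

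Kinesins are motor proteins that use ATP to move along microtubules or to take them apart. Interphase cells use them to carry vesicles, organelles, mRNA and ciliary parts, mostly toward the microtubule plus end. Dividing cells use a partly separate set that builds the spindle, moves the chromosomes and completes cytokinesis. Genes of this mitotic set are transcribed mainly in the late cell cycle.

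A level is given as the authors' mean normalized reads per kb of transcript, summed over the protein-coding transcripts of a gene. The label of the cell line was checked against marker genes on this scale. All 6 genes that mark mesenchymal-like basal breast cancer cells (VIM, CD44, LGALS1, ANXA1, S100A4 and CAV1) lay above the median of all genes. Of the 6 luminal or hormone receptor genes, ESR1, PGR and CDH1 had no row and the other 3 lay between 29.5 and 43.3 reads per kb, below the median of 117. Of the 3 markers of other cells, PTPRC had no row, and the endothelial PECAM1 and the fibroblast COL1A1 were at 4.08 and 29.7 reads per kb.

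The mitotic kinesin genes stood higher than the others as a group. Their median level was 304 reads per kb, within a range from 98.9 to 656. The other 22 genes had a median of 90.4, within a range from 2.58 to 1164. The ratio of these medians was 3.36, and the mitotic median was 2.59 times that of all genes while that of the others was 0.772 times. Of the mitotic genes, 11 of 12 lay above the median of all genes, against 7 of 22 others. Every mitotic gene was above the median of the others with KIF1BP among them. Without KIF1BP that median was 102, above KIF15 at 98.9. With transcripts of at least 20 reads it was also 102, against 93.4 for KIF15. The groups overlapped, with 11 of the others above the lowest mitotic gene and 2, KIF5B and KIF1C, above the highest. Genes are not replicates of a condition, so these medians are a description and were not tested.

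**Figure D1:**
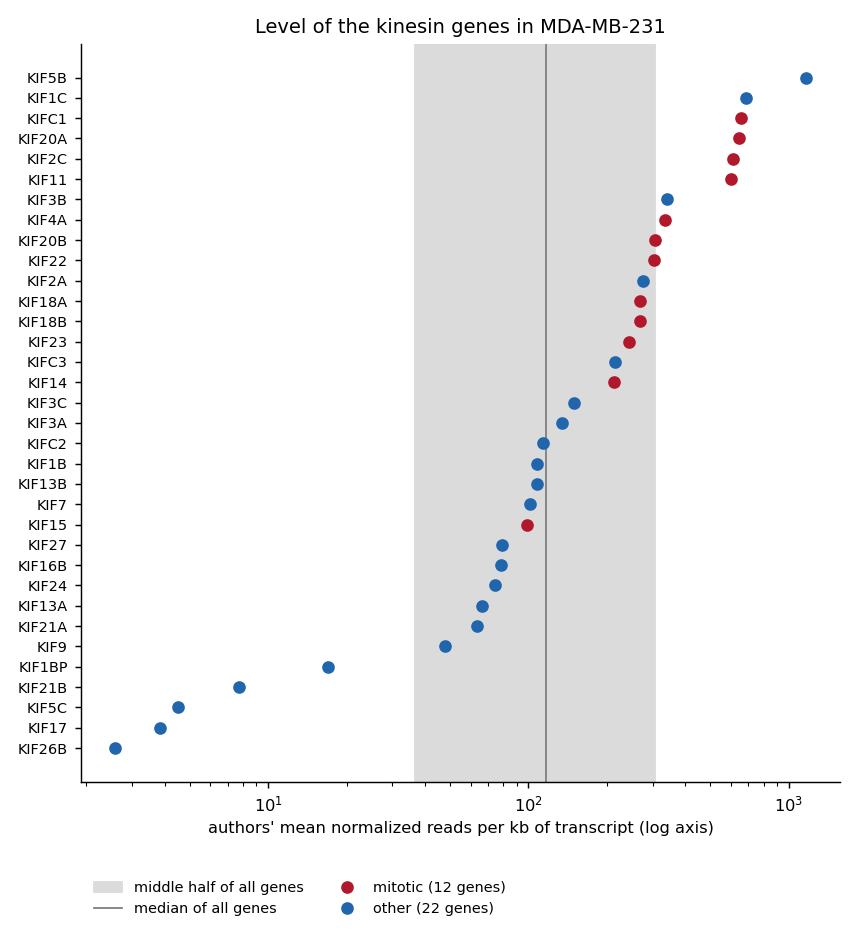
Level of each of the 34 kinesin genes, as the authors' mean normalized reads per kb of transcript on a log axis, with 1 point per gene and no error because the mean is the only value per transcript. Red points are the 12 mitotic genes and blue points the 22 others, the grey line is the median of all genes (117) and the grey band runs from their lower to their upper quartile. KIF5B at 1164 and KIF1C at 685 were followed by 4 mitotic genes between 603 and 656, and 5 of the others lay below the band.

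By summed reads per kb, the mitotic genes fell into an upper and a middle tier. KIFC1 (chr6:33391823-33409896, plus strand), whose protein moves toward the minus end and gathers spindle poles, had 656 reads per kb. KIF20A (chr5:138178719-138187723, plus strand), a motor of the spindle midzone that is needed for cytokinesis, had 646. KIF2C (chr1:44739818-44767767, plus strand), which takes microtubules apart at centromeres, had 612. KIF11 (chr10:92574105-92655395, plus strand), the motor that pushes the spindle poles apart, had 603. These 4 genes lay next to each other in the order, and the lowest of them was 1.77 times above the next kinesin gene, KIF3B. With the single largest transcript per gene, KIF20A was at 362, close to KIF3B at 340.1 and KIF4A at 335. Without division by length, KIF20B (1934 reads) lay above KIF2C (1733) and KIFC1 (1601). The tiers thus turned with how the level was computed.

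The middle tier ran from KIF4A to KIF14. KIF4A, a chromokinesin that also sets the length of the midzone, was at 335 reads per kb. KIF20B, a cytokinesis motor related to KIF20A, was at 306, and KIF22, which pushes chromosome arms away from the poles, was at 303. KIF18A, which dampens chromosome movement at the metaphase plate, was at 269. KIF18B, its relative on astral microtubules, was at 268. KIF23, the motor subunit of centralspindlin, was at 244, and KIF14, which works with citron kinase in cytokinesis, was at 214. KIF15, of another family than KIF11 but able to back it up in holding the spindle open, was the lowest at 98.9 and the one mitotic gene below the median of all genes. With transcripts of every type added, KIF15 reached 231 reads per kb against a median of 157 for all genes, and it was also above that median with the single largest transcript per gene (93.4 against 85.7 reads per kb) and with reads divided by the longest transcript (97.3 against 96.5). Its place below the median thus turned with how the level was computed. Reads of KIF4A are uncertain in one respect, since KIF4B is a near-identical intronless copy. KIF4B had no row in the table.

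Within several families the levels were uneven. The level of KIF20A was 2.12 times that of KIF20B, whereas KIF18A and KIF18B were at a ratio of 1.01. This contrast turned with how the level was computed. In reads not divided by length, KIF20A and KIF20B were at 1993 and 1934, and KIF18A and KIF18B at 961 and 1102. In the kinesin-14 family, KIFC1 was 3.04 times above KIFC3 and 5.79 times above KIFC2, both minus-end motors with work outside mitosis. The order of KIFC3 and KIFC2 turned with how the level was computed, as given below. In the kinesin-13 family, KIF2C was 2.21 times above KIF2A. KIF2A is grouped here with the others by the rule, although it too takes microtubules apart at spindle poles besides its work in neurons, and it was at 277 reads per kb, among the mitotic values.

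The transport motors were led by a few broadly expressed genes. KIF5B (chr10:32009015-32056425, minus strand), the ubiquitous heavy chain of conventional kinesin, was the highest of all members at 1164 reads per kb and percentile 94.6 of all genes. It alone made up 13.9% of the summed level of the 34 genes, and the 12 mitotic genes made up 54.2%. Its neuronal relative KIF5C was at 4.48, a ratio of 260 between them, and KIF5A had no row. KIF1C (chr17:4997950-5028401, plus strand), a vesicle carrier, was at 685, which was 6.33 times the level of KIF1B, a carrier of mitochondria and synaptic vesicle precursors, at 108. KIF1A had no row.

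The kinesin-2 genes, which drive transport in cilia, were all listed. KIF3B was at 340.1 reads per kb, KIF3C at 149.9 and KIF3A at 135, and the distant KIF17 was near the bottom at 3.84. KIF3B was thus 2.52 times above KIF3A, the partner it dimerizes with. Their accessory subunit KIFAP3 was at 215, between them. In reads not divided by length, KIFAP3 at 619 was just below KIF3A at 623.

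Apart from KIFC3 at 216 reads per kb, the remaining others lay below the median of all genes. Among endosome and vesicle motors, KIF13B was at 108, KIF16B at 78.4 and KIF13A at 66.6 reads per kb. Among genes tied to the primary cilium or centriole, KIF7, which acts in Hedgehog signalling, was at 102, its relative KIF27 at 79.1 and KIF24, which limits cilium formation, at 74.1. KIF21A, which restrains microtubule growth, was at 63.4 and its relative KIF21B at 7.69. KIFC2 was at 113, close to that median, while KIF9, of motile cilia, was at 47.9. KIF1BP was at 16.9, and KIF26B, an unusual kinesin with little motor activity, was the lowest at 2.58.

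Short transcript models weigh in several of these values. The KIF9 transcript with the largest value per kb is 640 bases long and that of KIFC3 is 810 bases, both partial models. When the reads of each gene were divided by its longest listed protein-coding transcript instead, KIF9 came to 14.2 reads per kb and KIFC3 to 89.6, the 2 members whose level moved by over 1.5 times. KIFC3 was then below KIFC2 (113) and below the median of all genes (96.5). KIF27 came to 53.9. KIF1C, which drew 233 of its 685 reads per kb from ENST00000574165.1 of 799 bases, came to 476, below the 4 leading mitotic genes, so that KIF5B was then the 1 other gene above the highest mitotic one. With the single largest transcript per gene KIF1C was at 452 and again below the highest mitotic gene. Of 42 human kinesin motor genes in a list written from general knowledge, 33 had a protein-coding row. The 9 without any row were KIF1A, KIF2B, KIF4B, KIF5A, KIF6, KIF12, KIF19, KIF25 and KIF26A. The lowest mean in the table is 7.34 normalized reads, and no level is given here for a gene without a row.

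**Figure D2:**
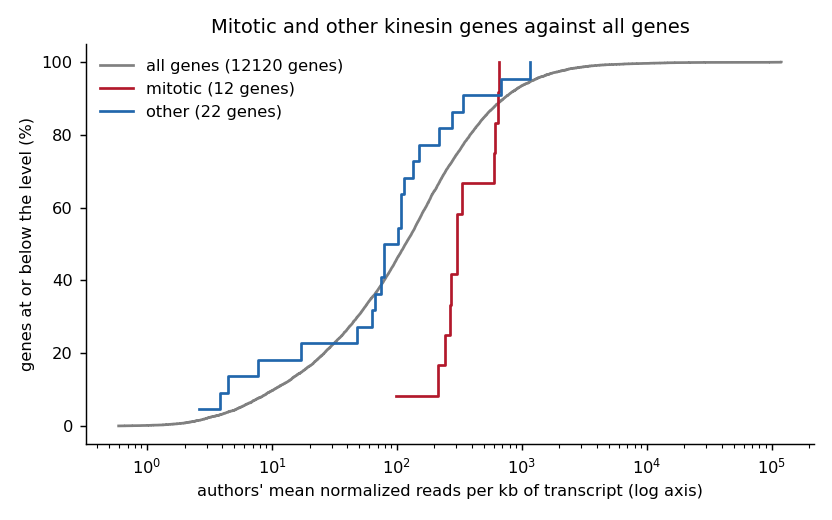
Share of genes at or below each level, in percent, against the authors' mean normalized reads per kb on a log axis, for the 12 mitotic genes (red), the 22 others (blue) and all 12120 genes (grey). At the middle of the vertical axis the red line lay to the right of the grey one (304 against 117) and the blue line to its left (90.4), and they ended at 656 and 1164.

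The level per kb hides how reads divide among transcripts. In all, 31 transcripts of other types belonged to 16 of the 34 genes, namely 12 with a retained intron, 10 annotated for nonsense-mediated decay, 8 processed transcripts and 1 of the type TEC, which awaits an experimental check. Such rows were present for 9 of 12 mitotic genes and 7 of 22 others, against 53.0% of all genes. KIF15 held the largest share, with 360 of its normalized reads, or 43.3%, in 3 nonsense-mediated decay transcripts and 471 in protein-coding ones. KIF22 followed with 33.5%, most of it in the retained-intron transcript ENST00000565736.1 with 273 reads. In the other mitotic genes the share was 8.38% or less. Among the others, KIFC3 had 29.8% and KIFC2 28.9% of their reads in such rows. Transcripts of a gene overlap, so each share also depends on how the estimation divided shared reads.

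Within the protein-coding rows, KIF11, KIF4A and KIF18A were listed with 1 transcript each, and the mitotic genes had 26 in all. KIF2C drew 96.6% of its level per kb from ENST00000372224.8, and KIF18B 93.5% from ENST00000587309.5. KIF20A was divided more evenly, with 56.0% in ENST00000394894.7 and the rest in ENST00000508792.5. KIF14 had 59.0% in its leading transcript and KIF23 66.7%.

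**Figure D3:**
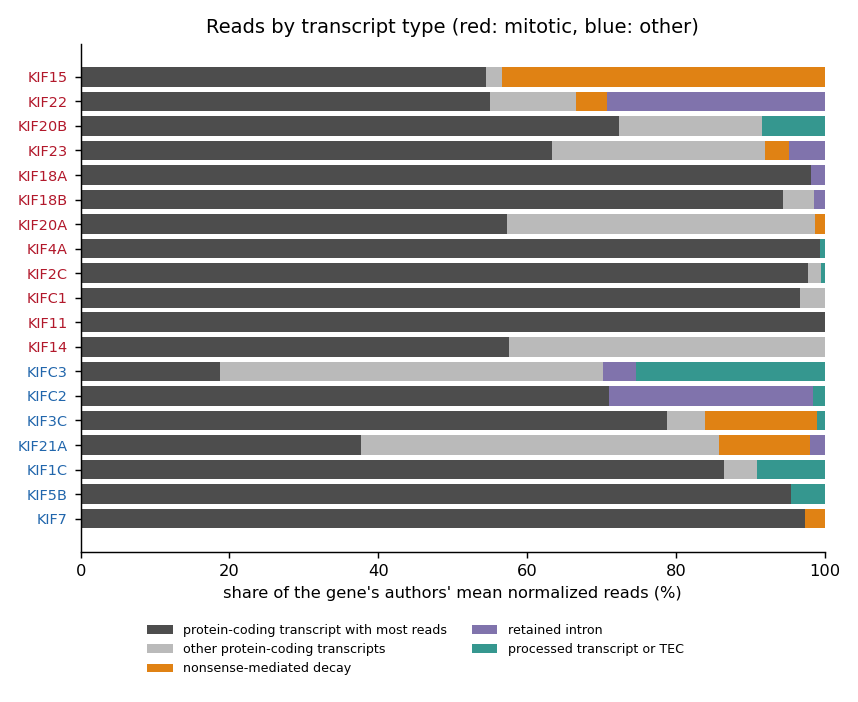
Share of each gene's authors' mean normalized reads, in percent, held by the protein-coding transcript with most reads (dark grey), other protein-coding transcripts (light grey), nonsense-mediated decay transcripts (orange), retained-intron transcripts (purple) and processed transcripts or those to be experimentally checked, TEC (green). All 12 mitotic genes (red names) and the 7 others with such rows (blue names) are drawn, and the coloured parts were largest in KIF15 (43.3%) and KIF22 (33.5%).

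Promoters were compared next, because many genes of mitosis are known to share a promoter element. The cell cycle genes homology region, CHR, is a short promoter element through which the DREAM and MuvB complexes hold genes silent in resting cells and switch them on late in the cell cycle. Its usual form is TTTGAA and a variant is TTTAAA. The box bound by the factor NF-Y, CCAAT, commonly lies upstream of it. Both strands were searched in the RefSeq promoters of GRCh38.p14, which run from 250 bases before to 50 after the gene's start. The motifs were counted independently of each other, and TTTAAA, which reads alike on both strands, was counted once. All 12 mitotic genes and 16 of the 22 others matched a promoter. KIF13B, KIF21B, KIF26B, KIF27, KIFC2 and KIFC3 did not.

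TTTGAA was found in 9 of 12 mitotic promoters and in 1 of 16 others. Among the 9987 genes of the table with a promoter the share was 9.70%, and among all 35116 RefSeq promoters 15.2%. With TTTAAA counted as well, 11 of 12 mitotic and 2 of 16 other promoters had a match, against 15.8% of the genes of the table and 24.0% of all RefSeq promoters. KIF20A and KIF2C came in by TTTAAA alone, and KIF22 had neither form. CCAAT was present in 10 of 12 mitotic and 5 of 16 other promoters, against 36.7% of the genes of the table and 34.6% of all RefSeq promoters. TTTGAA and CCAAT occurred together in 8 mitotic promoters and in 1 other, that of KIF5B, against 4.09% of the genes of the table. A match is a string of letters and not a shown binding site, and the shares were not tested.

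The matching stretches are shown so that the motif can be read in its surroundings. Each is read 5′ to 3′ on the strand of the gene, with 12 bases on either side, and capitals mark the motif. TTCAAA is TTTGAA read from the opposite strand. The coordinates are those of the 30-base window in GRCh38.p14, the assembly of hg38.
KIF11 (chr10:92593090-92593119, plus strand): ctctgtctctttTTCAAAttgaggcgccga
KIF14 (chr1:200620733-200620762, minus strand): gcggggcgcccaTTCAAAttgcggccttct
KIF15 (chr3:44761747-44761776, plus strand): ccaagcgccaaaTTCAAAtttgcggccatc
KIF18A (chr11:28108149-28108178, minus strand): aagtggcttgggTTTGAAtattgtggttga
KIF18B (chr17:44947754-44947783, minus strand): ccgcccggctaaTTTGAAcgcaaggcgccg
KIF20B (chr10:89701602-89701631, plus strand): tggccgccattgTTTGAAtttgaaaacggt
KIF23 (chr15:69414282-69414311, plus strand): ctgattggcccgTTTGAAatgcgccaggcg
KIF4A (chrX:70290058-70290087, plus strand): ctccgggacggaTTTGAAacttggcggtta
KIFC1 (chr6:33391815-33391844, plus strand): tggccgttggaaTTCAAAagtggcgggtgt
KIF5B (chr10:32056548-32056577, minus strand): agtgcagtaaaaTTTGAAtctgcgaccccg

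Positions are counted from the RefSeq start, which is not always the start of the GENCODE v44 gene given above. The mitotic matches lay close to the RefSeq start. KIF23 had the farthest one upstream, beginning at base -55, and KIF20B the farthest downstream, with a first copy at base 25 and a second directly after it at base 31. In KIF18A, KIF11, KIF4A and KIF15 the motif began at bases -10, -28, -34 and -35. In KIF14, KIF18B and KIFC1 it began at bases 2, 3 and 5. The match of KIF5B was farther away, at base -140. Within 60 bases of the start, a distance chosen after these positions were seen, as were the other starts used here, all 9 mitotic genes with TTTGAA kept a match and none of the 16 others had one, against 2.96% of the genes of the table. Counted from the GENCODE v44 gene start, 8 of the 9 did, because the KIF11 gene begins with a transcript that starts far upstream and its motif is then at base 18998. From the start of the listed protein-coding transcript with most reads, 7 of the 9 did. The motif was then at base -2027 in KIF14 and -134 in KIF18B, while in KIF11 and KIF15 it stayed at -28 and -35. In KIF23 it lay at base 49 from both GENCODE starts, that is, after them. In the 8 mitotic promoters with both motifs, every CCAAT began upstream of TTTGAA, whereas in KIF5B it began downstream, at base -59.

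**Figure D4:**
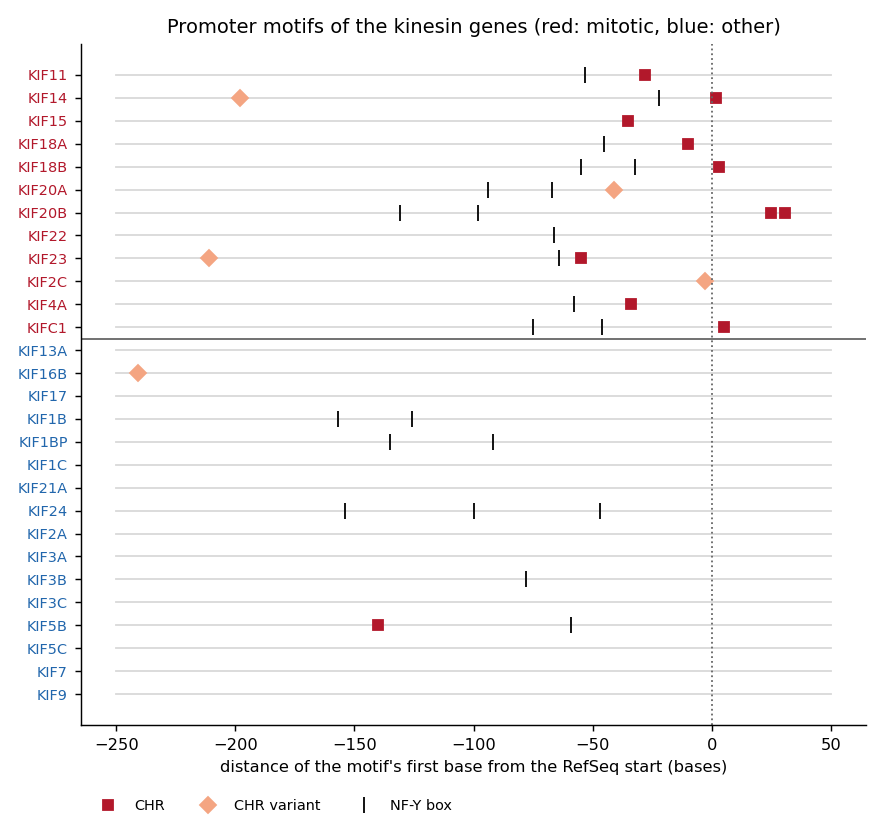
Position of promoter motifs in 28 kinesin genes, as the distance in bases of the motif's first base from the RefSeq start of the gene (dotted line), with mitotic genes above the horizontal line (red names) and others below it (blue names). Red squares are the usual CHR form, orange diamonds its variant and black ticks the NF-Y box, on either strand. In the mitotic genes the red squares sat between bases -55 and 31, and KIF5B was the one other gene with such a square, at base -140.

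Partner genes of the motors, from a list written with the members known, were likewise set out as spindle and midzone genes and as cargo and adaptor genes. All 12 spindle and midzone partners had a protein-coding row, and 10 of them lay above the median of all genes, with a median level of 399.9 reads per kb and a range from 72.2 to 1625. The lowest, AURKA, rested on 64.5 normalized reads, and short transcript models were not examined for the partners. Of 10 cargo and adaptor genes, 9 were listed, KLC4 being the one without a row. KIF1BP is one of them and is already among the 22 others, so the values here leave it out. The levels of the remaining 8 ran from 21.2 to 219.8 reads per kb with a median of 137, and 5 of them lay above the median of all genes. In promoters, 6 of 8 matched spindle partners held TTTGAA, and none of 7 matched cargo partners did, again without KIF1BP, which had none either.

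Motors were next set beside the partners they work with. PRC1, the midzone bundler that recruits KIF4A, was at 1625 reads per kb, which was 4.85 times the level of KIF4A. TPX2, which binds KIF11 on the spindle, was at 1567, or 2.60 times KIF11. RACGAP1, the other subunit of centralspindlin, was at 349.5, or 1.43 times KIF23. CIT, the citron kinase that works with KIF14, was lower than its partner at 112 against 214. AURKB, the kinase of the chromosomal passenger complex that KIF20A brings to the midzone, was at 181, and KIF20A stood 3.56 times above it. CENPE, a mitotic kinesin whose symbol falls outside the name pattern, was at 269, the same as KIF18A to 3 digits. Their reads not divided by length differed, with 2254 for CENPE and 961 for KIF18A. Among transport complexes, KIF5B was 9.28 times above KLC1 and 44.5 times above KLC2, its light chains. The size of these ratios changed with how the level was computed, and other settings were not run for the partners. In reads not divided by length, PRC1 was at 3502 against 1457 for KIF4A, and KIF5B at 6841 against 229 for KLC1.

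The 3′UTRs of the members were examined because HuR binds AU-rich and U-rich stretches, often there. For each gene the transcript with the largest value per kb that the reference holds with a 3′UTR was used, and AUUUA, the core pentamer of AU-rich elements, was counted on the sense strand with overlaps allowed. Mitotic 3′UTRs were shorter, with a median of 604 bases against 1837 in the others and 1154 over 11893 genes. These are lengths in GENCODE v44, in which some transcripts are longer and others shorter than deposited. Among the mitotic genes, that of KIF11 is longer (5016 against 4860 bases) and that of KIFC1 shorter (2391 against 2706). For KIF9 and KIFC3 this was the partial model named above, with 56 and 221 bases of 3′UTR. AUUUA occurred in 8 of 12 mitotic genes, in 18 of 22 others and in 71.1% of all genes. In the longest annotated 3′UTR of each gene it occurred in 8 mitotic genes, 19 others and 76.7% of all genes. Per summed length the order was the reverse, with 2.61 pentamers per kb in mitotic 3′UTRs, 2.003 in the others and 2.31 over all genes. The 3′UTRs also differed in base composition, with a median share of G and C of 36.3%, 45.5% and 41.7% in the same sets. Its part in the density was not tested. The share of genes with a pentamer and the density thus ordered the groups differently. The longer UAUUUAU occurred in 2 mitotic genes, KIF14 and KIF23, and in 13 others, against 33.4% of all genes.

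Single members differed widely. KIF14 had 8 pentamers in 1891 bases, the most of the mitotic genes, and KIF20B had 5 in 891. KIF11, KIF18A and KIF23 had 3 each. KIF2C, KIF4A, KIF22 and KIFC1 had none, in 3′UTRs of 588, 621, 74 and 206 bases. Among the others, KIF27 had 18 in 2902 bases and KIF5B 12 in 2522. The KIF27 transcript is 7257 bases long in GENCODE v44 but 4653 as deposited, and that of KIF26B 13593 against 7287. Their 3′UTRs can thus be longer than those on which the reads were counted. The reverse can hold for KIFC1, whose transcript is shorter in GENCODE v44 than deposited. At which end these lengths differ was not examined. KIF2A had 2 in the 814 bases used, but 14 in the 3′UTR of 5456 bases that is its longest in the annotation, and KIF3A had 3 in 1004 bases against 17 in 4006. A pentamer is a match of letters, and HuR binding to these mRNAs is not analysed here.

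**Figure D5:**
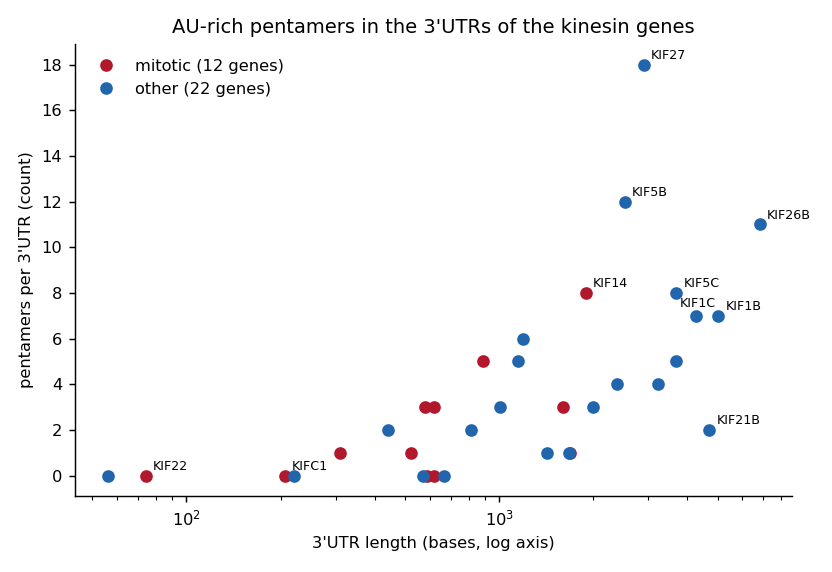
Number of AUUUA pentamers per 3′UTR against 3′UTR length in bases on a log axis, with 1 point for each of the 34 kinesin genes (red, 12 mitotic, and blue, 22 others). The mitotic points lay between 74 and 1891 bases with at most 8 pentamers, and the others reached 6826 bases (KIF26B) and 18 pentamers (KIF27). The 3′UTRs are those of GENCODE v44, in which the transcripts of KIF26B and KIF27 are longer than deposited and that of KIFC1 is shorter.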

How the data were processed

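Libraries of mRNA from MDA-MB-231 cells, 2 with DMSO and 2 with 10 µM KH-3 for 24 h, were sequenced. The authors aligned them to GENCODE v24 transcripts (hg38) in STAR, estimated reads per transcript with eXpress and normalized them in DESeq2, with versions not given in the sources used here. Per the file headers, the deposited signal is 1 mean normalized read count per transcript. It has no value per library, so depth and replicate spread are unknown and no interval was computed. The table's other columns hold a log2 fold change, a p-value and a q-value of the authors' own comparison, and none of them was used. No test was made.

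Members were taken by symbol and by the type protein_coding. Reads were divided by the deposited transcript length in kb and summed per gene symbol (12 symbols join 2 gene IDs as the table writes them, none of them a member). Every member was named, with its level. Members and lists were chosen with earlier results of these data known, and KIF1BP stayed in because the pattern takes it. Gene positions and 3′UTRs came from GENCODE v44 on hg38, in which all 81 member transcripts were found by ID without version (96.4% of all protein-coding transcripts), and promoters from RefSeq (GRCh38.p14), matched for 82.4% of genes by symbol. A planned search of protein motifs was not run, since no protein table was used. Alternatives covered transcript types, summing, length, a minimum of 20 reads, 3′UTR choice and motif forms. The computations were tested on simulated data (seed 1). Python 3.11.15, numpy 2.4.6, pandas 2.3.3 and matplotlib 3.10.9 were used.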

Additional observations from a re-analysis of the deposited data

How the results depend on the processing

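Every mean is 1 value over libraries, so leaving out a library was not possible, and what depth would limit is unknown. No paired analysis was possible because the table has no value per library. A value was taken as unchanged within 1.5 times. Across 6 settings the ratio of the medians, mitotic over other, lay between 2.99 and 4.56. It was 2.99 without KIF1BP, and also 2.99 with transcripts of at least 20 reads, where KIF9, KIF17 and KIF26B drop out and 31 genes stay. The median of the others fell to 57.3 reads per kb with the single largest transcript per gene. Without division by length, the medians were 1477 reads for the mitotic genes and 399 for the others, in another unit, and 14 of the 22 others then lay above the median of all genes against 7 per kb. The number of mitotic genes above that median was 11 or 12 throughout. With UAUUUAU for AUUUA, the mitotic genes with a match went from 8 to 2. The use of the longest transcript length, the exclusion of KIF1BP and the other start sites were chosen after seeing the data.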
